A study of Homo sapiens with 12 samples.

Results

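The 10 genes described here mark or control the epithelial-mesenchymal transition (EMT) or build the junctions that epithelial cells give up during it. They are the cadherin genes CDH1 and CDH2, the desmosome genes DSP and JUP, the intermediate filament gene VIM, and the transcription factor genes ZEB1, ZEB2, SNAI1, SNAI2 and TWIST1. They were taken by name from the 60504 genes of the deposited expression tables. Of the 10 genes, 8 reached 1 TPM in at least 2 of the 12 libraries, as 16404 of all genes did. TPM, the unit of all levels here, scales the transcript count of a gene by transcript length and by the total of its library. CDH1 and TWIST1 stayed below that level and were not tested.

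Epithelial cells are held together at adherens junctions by E-cadherin, the product of CDH1, and at desmosomes by cadherins whose tails bind plakoglobin (JUP) and desmoplakin (DSP), which in turn anchors keratin filaments. In EMT the cells replace these with N-cadherin (CDH2) and vimentin (VIM) and become motile. The ZEB, SNAI and TWIST factors drive the switch and bind E-box sequences in the promoters of junction genes such as CDH1. In bladder cancer, loss of E-cadherin accompanies muscle-invasive growth.

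All libraries came from T24, a long-established line of human bladder carcinoma cells, in which the U11 small nuclear RNA, a part of the minor spliceosome, had been targeted. In the knockout comparison 2 libraries with a U11 knockout label faced 2 untreated controls. The overexpression comparison set 6 U11 overexpression libraries, 2 for each of the line labels 79, 86 and 87, against 2 controls of its own, labelled untreated. Per the methods, the knockout was made with a pair of guide RNAs in a Cas9 plasmid and the monoclonal line with the highest knockout efficiency was kept, and the overexpression lines were monoclonal lines stably carrying a pcDNA-U11 plasmid. The labels name no separate cultures, so a P-value here measures the spread between libraries, which may be technical.

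RNU11, the U11 gene, was measured first. Its summed level was 21.4 and 23.8 TPM in the knockout comparison's controls and 31.6 and 37.4 TPM under the knockout label, which is higher and not lower. The methods chose the line by quantitative PCR of U11, a different measure from these libraries, and directions in that comparison are given by label only. In the overexpression comparison the controls had 0.0334 and 0.623 TPM of RNU11, with 0.183 and 0.412 TPM in line label 79, 3.98 and 3.72 TPM in line label 86 and 61.9 and 53.6 TPM in line label 87. By this measure line label 79 lay within the range of its controls. Aligned sequence ran from 9.07 to 15.33 gigabases per library. Replication-dependent histone genes, whose transcripts lack a poly(A) tail, took 27661.8 to 34278.5 TPM per library in the knockout comparison, but 103.4 to 179.8 TPM in the other. The 2 comparisons thus differed in library type, and levels are compared only within each. Whether the libraries of the overexpression comparison capture U11 in full was not tested. Their RNU11 values need not follow the U11 level of the cells.

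The cell identity was checked on marker lists. Of 18 urothelial markers, KRT7, KRT8, KRT18, KRT19, GATA3, PPARG and FOXA1 were expressed, while the other 11, the uroplakins, KRT5, KRT20 and TP63 among them, stayed under 1 TPM in every group. The 10 fibroblast markers summed to between 1.76 and 4.27 TPM and the 8 leukocyte markers to between 0.274 and 3.59 TPM. The 7 endothelial markers summed to between 33.3 and 35.6 TPM in line label 79, nearly all of it the cadherin CDH5, and to at most 6.43 TPM in the other groups.

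E-boxes of the sequences CAGGTG and CACCTG, which are reverse complements and which ZEB and SNAI proteins are known to bind, were looked for in the 250 bases before the RefSeq start sites. RefSeq (GRCh38.p14) entries were at hand for 6 of the 10 genes: VIM, CDH2, DSP, JUP, ZEB1 and ZEB2. Of 35116 such windows in the genome, 17.5% held at least 1 of these E-boxes and 2.53% held at least 2. The DSP window held 2, beginning 178 and 85 bases before the start, and 1 of the JUP windows held 2, beginning 54 and 43 bases before it. They are shown because DSP and JUP are the desmosome genes whose levels are followed below, with the E-boxes in capitals and 30 bases for each stretch, read 5′ to 3′ on the strand of the gene.
DSP at chr6:7541481-7541510, plus strand: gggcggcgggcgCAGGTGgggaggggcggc
DSP at chr6:7541574-7541603, plus strand: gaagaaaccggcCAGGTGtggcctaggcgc
JUP at chr17:41786007-41786036, minus strand: tggcccCACCTGccgagCAGGTGagcgcac
GENCODE release 44 places untranslated exon sequence of the same gene over all 3 stretches. Among the 7 ZEB1 windows, 1 held 2 E-boxes and another held 1. Neither VIM, CDH2 nor ZEB2 had a match in its windows, which says only that these letters are not there. A match is a description of the sequence and not evidence of binding.

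**Figure D1:**
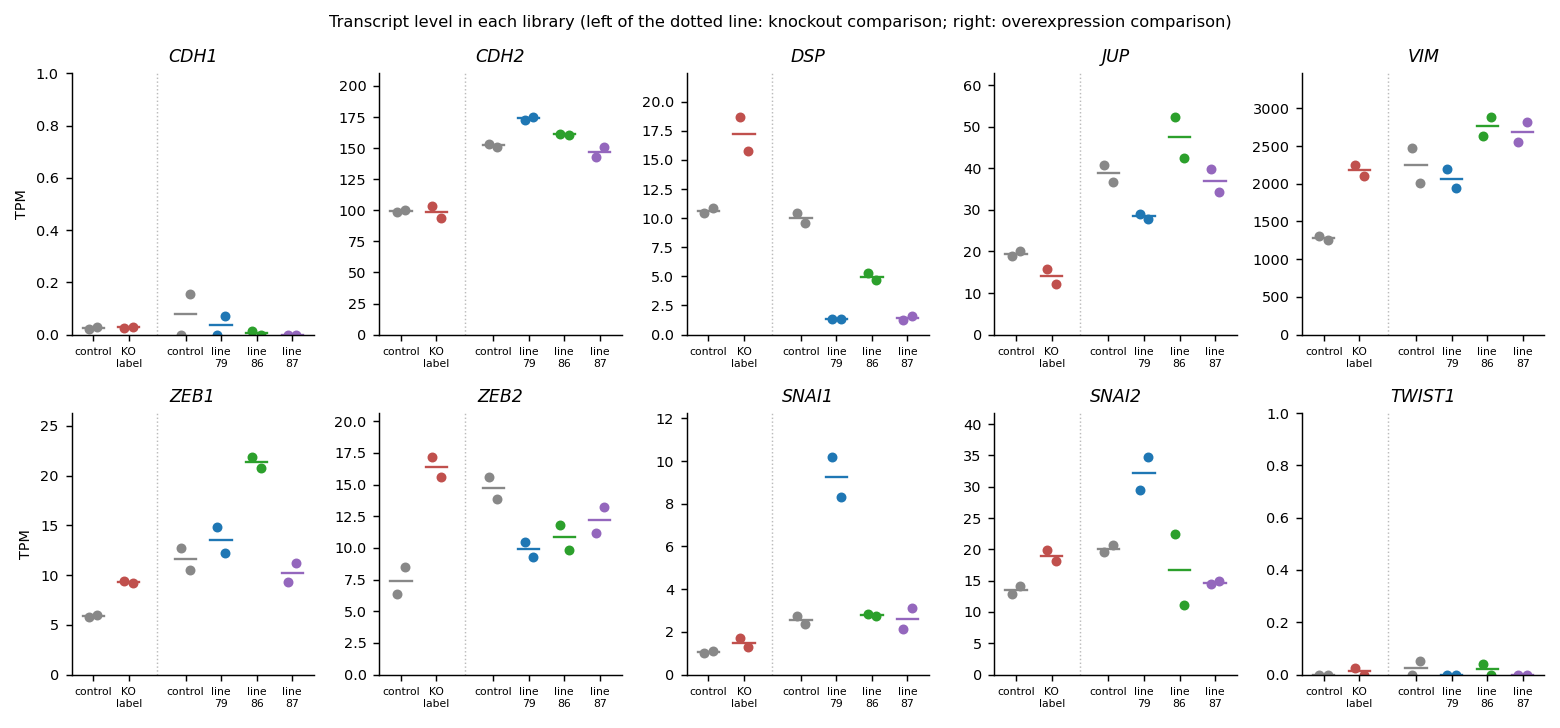
Level of each of the 10 genes in TPM on a linear axis from 0, with 1 point per library and a bar at the mean of each group. CDH1 and TWIST1 lie at or close to 0 in all 12 libraries, DSP is lower in the 6 overexpression libraries than in their controls, and SNAI1 stands out in line label 79.

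CDH1 was nearly silent in every library. Its highest value was 0.155 TPM, in control replicate 4 of the overexpression comparison, and it was listed at 0 in 5 of the 12 libraries. The N-cadherin gene CDH2 (chr18:27950966-28177446 in the hg38 coordinates of the files) was expressed throughout. CDH2 RNA with CDH1 at or near 0 was thus the pattern of all 12 libraries, controls included. In a bulk sample, fewer cells expressing a gene and less RNA per cell cannot be told apart.

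CDH2 measured 98.3 and 100.1 TPM in the controls and 103.6 and 93.8 TPM under the knockout label. The groups overlapped, and the log2 fold change was -0.01 ± 0.09 (SE), with a 95% interval from -0.25 to 0.23. In the overexpression comparison the controls held 153.3 and 151.0 TPM, line label 79 held 172.5 and 175.2 TPM, line label 86 held 161.2 and 160.8 TPM and line label 87 held 142.8 and 150.5 TPM. Line label 79 lay above the controls and line label 87 just below them. The difference between line labels 79 and 87, 0.24 on the log2 scale (limma, adjusted P = 0.0457), was smaller than the 1.5-fold change required for a call. All log2 fold changes here are on log2(TPM + 1), a scale that understates the change of genes at a low level, and a gene was called when its unadjusted limma P was under 0.05 and its fold change at least 1.5.

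Desmoplakin RNA was the one transcript of the 10 called as lower over the overexpression libraries as a group. DSP (chr6:7541575-7586717) measured 10.4 and 9.60 TPM in the controls. It measured 1.37 and 1.37 TPM in line label 79, 5.31 and 4.65 TPM in line label 86 and 1.21 and 1.56 TPM in line label 87. All 6 libraries lay below both controls, by the largest margin in line labels 79 and 87.

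Over the 6 libraries the fall was -1.77 ± 0.44 on the log2 scale, past the thresholds for a call but not after adjustment over 15768 genes (limma, adjusted P = 0.395). The 3 line labels differed from each other, so the 6 libraries did not share 1 level. Taken singly, DSP fell by 2.21 in line label 79 (adjusted P = 4.19e-04), by 0.88 in line label 86 (adjusted P = 0.0284) and by 2.21 in line label 87 (adjusted P = 5.80e-04), each with an SE of 0.13. Line label 86 was above line label 79 by a difference of 1.33 (limma, adjusted P = 0.00219 for the differences among the 3 labels), while line labels 79 and 87 differed by -0.01 with a 95% interval from -0.31 to 0.30. Library batches were read from the codes in the sample titles, which do not call them batches. Within them the mean difference from the control was -1.83 in 1 batch and -1.71 in the other. The exact permutation test (two-sided, the smaller tail times 2) gave 0.071, the smallest P-value that this form of the test allows for 6 libraries against 2.

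RNU11 is set beside DSP because it also differed between the line labels, and its part in the DSP values was not tested. RNU11 was at most 0.412 TPM in line label 79, between 3.72 and 3.98 TPM in line label 86 and at least 53.6 TPM in line label 87. DSP was at 1.37, 4.65 to 5.31 and 1.21 to 1.56 TPM in the same order.

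**Figure D2:**
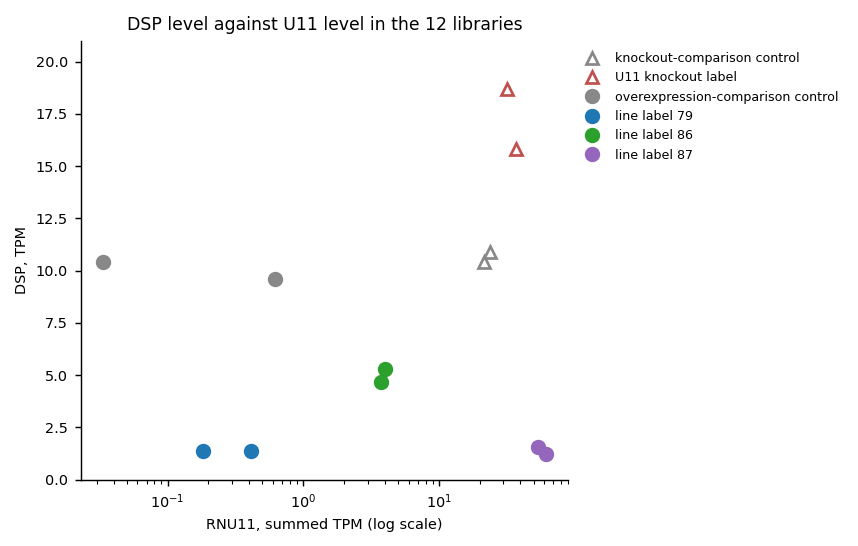
DSP in TPM (linear axis) against the summed level of RNU11 in TPM (log axis) in the 12 libraries, with triangles for the knockout comparison and circles for the overexpression comparison. Line labels 79 and 87 sit at overlapping low DSP levels at opposite ends of the RNU11 range of the overexpression lines, and line label 86 lies above both.

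In the knockout comparison DSP moved in the opposite direction. It measured 10.4 and 10.9 TPM in the controls and 18.7 and 15.8 TPM under the knockout label, without overlap. The change was 0.64 ± 0.13 (limma, adjusted P = 0.0526), which was called but missed the adjusted threshold. Without knockout replicate 1 it was 0.53, under the fold change required, and it was also under it with median ratio scaling, quantile normalization or FPKM.

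Plakoglobin, the partner of desmoplakin that also serves adherens junctions, behaved differently from DSP. JUP (chr17:41754604-41786931) measured 18.9 and 20.0 TPM in the controls and 15.8 and 12.2 TPM under the knockout label. The values did not overlap and lay lower than the controls, but the difference of -0.46 ± 0.15 was not called (limma, adjusted P = 0.131). It would be called without knockout replicate 1, at -0.63.

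Against the controls of the overexpression comparison, at 40.9 and 36.8 TPM, JUP measured 29.0 and 27.9 TPM in line label 79, 52.4 and 42.6 TPM in line label 86 and 39.8 and 34.2 TPM in line label 87. No line label was called against the controls. Line label 79 was nevertheless lower than line label 86 by a log2 difference of -0.71 ± 0.13 (limma, adjusted P = 0.0156). The order was line label 86, controls, line label 87 and line label 79, and no neighbours in that order were called as different.

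Vimentin RNA was by far the most abundant of the 10 transcripts. VIM (chr10:17228259-17237593) rose from 1304.1 and 1259.5 TPM in the controls to 2254.3 and 2096.5 TPM under the knockout label. The groups were well separated, and the change of 0.76 ± 0.07, or 1.70-fold, passed the adjusted threshold (limma, adjusted P = 0.0144). Relative to the median change of all genes, which was 0.108 on the log2 scale in this comparison, VIM rose by 0.65, ZEB2 by 0.95, DSP by 0.54 and ZEB1 by 0.48.

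The VIM values of the overexpression comparison spread over a range in which the controls were not distinct. The controls held 2470.1 and 2014.1 TPM, line label 79 held 2191.8 and 1939.4 TPM, line label 86 held 2634.4 and 2887.4 TPM and line label 87 held 2553.4 and 2823.1 TPM. Line labels 86 and 87 lay above both controls, but by log2 differences of 0.31 and 0.27 that were not called (limma, adjusted P = 0.337 and 0.315). The genes VIM-AS1 and RP11-124N14.3 overlap VIM on the opposite strand, with at most 8.60 and 13.1 TPM, and whether the counting used strand is not given in the sources used here.

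**Figure D3:**
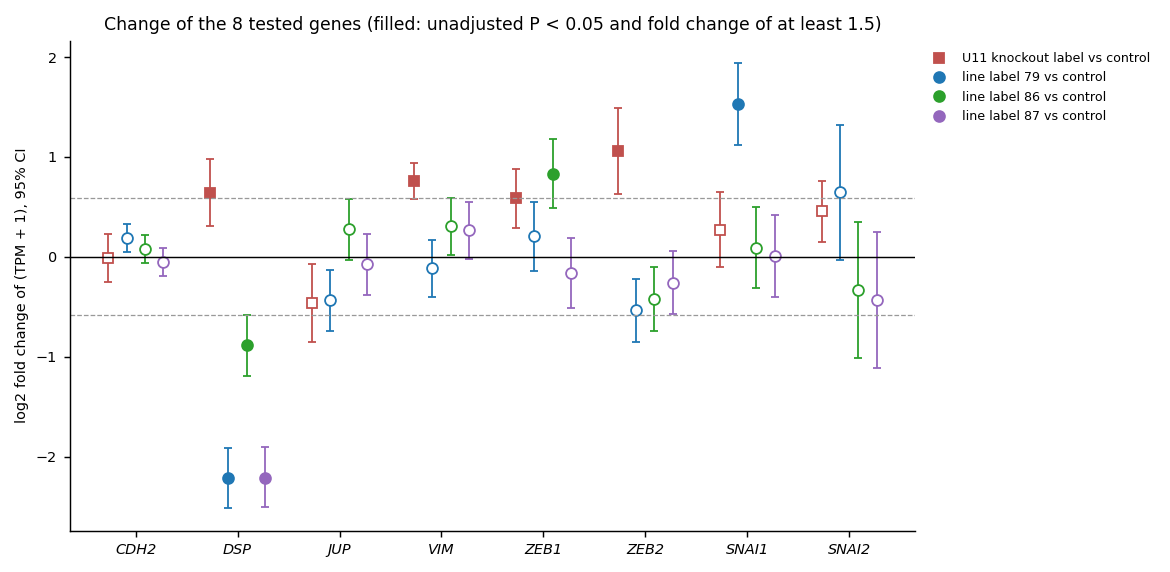
Log2 fold change of (TPM + 1) against the controls of the same comparison, with 95% confidence intervals from limma, for the 8 tested genes under the U11 knockout label and in each overexpression line label. Filled symbols were called, and dashed lines mark a fold change of 1.5. DSP is the one gene called in all 4 contrasts, upward under the knockout label and downward in the 3 line labels.

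Both ZEB genes had more RNA under the knockout label. ZEB1 and ZEB2 encode zinc finger homeobox repressors of epithelial genes. ZEB2 (chr2:144384081-144524583) measured 6.33 and 8.49 TPM in the controls and 17.2 and 15.6 TPM under the knockout label. These values did not overlap, and the change of 1.06 ± 0.17 was the largest among the 8 tested genes in that comparison (limma, adjusted P = 0.0342).

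ZEB1 (chr10:31318495-31529814) measured 5.77 and 5.96 TPM in the controls and 9.38 and 9.22 TPM under the knockout label. The change was 0.59 ± 0.11 (limma, adjusted P = 0.0484), a fold change just over the threshold. It fell under the threshold with median ratio scaling (0.48), and was 0.57 without control replicate 1 and 0.58 without knockout replicate 1. The deposited coverage of ZEB1 per aligned gigabase did not separate the groups, at 0.403 and 0.347 in the controls and 0.371 and 0.632 under the knockout label. For ZEB2 it did, at 0.270 and 0.317 against 0.638 and 0.580.

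The overexpression lines split the ZEB genes. ZEB1 measured 12.7 and 10.5 TPM in the controls, 14.8 and 12.2 TPM in line label 79, 21.9 and 20.8 TPM in line label 86 and 9.27 and 11.2 TPM in line label 87. It rose in line label 86 by 0.83 ± 0.14 (limma, adjusted P = 0.0484) and overlapped the controls in the other two. The line labels differed (range of their means 0.99, limma adjusted P = 0.0135).

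ZEB2 measured 15.6 and 13.9 TPM in the controls, 10.5 and 9.27 TPM in line label 79, 11.8 and 9.85 TPM in line label 86 and 11.2 and 13.2 TPM in line label 87. All 6 libraries lay below both controls. The difference of -0.40 ± 0.14 stayed under the fold change required (limma, adjusted P = 0.645), and the line labels were not shown to differ (range 0.28, adjusted P = 0.366). ZEB1-AS1, on the opposite strand over the 5′ end of ZEB1, reached 5.63 TPM, and ZEB2-AS1 at most 0.144 TPM.

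SNAI1, which encodes Snail, was high in line label 79. Its controls held 2.72 and 2.39 TPM, line label 79 held 10.2 and 8.31 TPM, line label 86 held 2.85 and 2.73 TPM and line label 87 held 2.12 and 3.12 TPM. Line label 79 stood far above all other libraries, which lay close together. SNAI1 (chr20:49982999-49988886) rose there by 1.53 ± 0.17 (limma, adjusted P = 0.00424), by 1.59 in 1 library batch and 1.46 in the other, and the line labels differed (range 1.51, adjusted P = 0.00401).

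Under the knockout label SNAI1 was at 1.71 and 1.28 TPM, against 1.01 and 1.10 TPM in the controls. These low values did not overlap, and the difference of 0.27 ± 0.14 was not called (limma, adjusted P = 0.272).

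SNAI2, which encodes Slug, was higher in line label 79 than in the other line labels. It measured 19.5 and 20.7 TPM in the controls, 29.5 and 34.8 TPM in line label 79, 22.4 and 11.1 TPM in line label 86 and 14.4 and 14.9 TPM in line label 87. Against the controls line label 79 was higher by 0.65 ± 0.28, which was not called (limma, adjusted P = 0.229). The 2 libraries of line label 86 disagreed by more than any other pair, falling on either side of the controls. The range of the line means, 1.08, was called but missed the adjusted threshold (limma, adjusted P = 0.0725), and it was not called without replicate 3 of line label 79, with 4 members called in place of 5. In the knockout comparison SNAI2 (chr8:48917690-48921740) measured 12.9 and 14.2 TPM in the controls and 19.9 and 18.1 TPM under the knockout label, a difference of 0.46 ± 0.12 that was under the fold change required (limma, adjusted P = 0.0822).

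TWIST1, the basic helix-loop-helix factor of the group, was listed at 0 in 9 of the 12 libraries and reached at most 0.0499 TPM. Genes that every cell uses were not listed at 0 in any library: the lowest of 8 such genes was 9.83 TPM. Of the 5 transcription factor genes among the 10, ZEB1, ZEB2, SNAI1 and SNAI2 were thus expressed.

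In the knockout comparison 4 of the 8 tested genes were called higher (VIM, DSP, ZEB1 and ZEB2) and none lower, where 8.61% of 14356 genes were called higher and 3.15% lower. After adjustment 3 remained (VIM, ZEB1 and ZEB2), against 6.85% of all genes. Of the 8 genes, 7 did not overlap between the groups, as 60.2% of all genes did not. Over all genes 73.2% of the calls were upward, and with median ratio scaling 52.8% were, with the median change then 0.003. With that scaling VIM and ZEB2 stayed called. JUP was lower at an unadjusted limma P under 0.05 but not past the fold change required. With 2 libraries against 2 the exact permutation test cannot go below 0.33.

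In the overexpression comparison 1 of the 8 genes was called, DSP, as lower, where 0.767% of all genes were called higher and 1.16% lower. No member passed the adjusted threshold in limma, where 0.165% of all genes did, and 2 members, DSP and ZEB2, had an unadjusted P under 0.05. The same 2 did not overlap between the groups, against 9.87% of all genes. Libraries of 1 line label are not independent lines, and with the mean of each line label in their place DSP was again the only member called.

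The single line labels gave more calls than the 6 libraries together. Line label 79 had SNAI1 higher and DSP lower, where 2.43% of genes were called higher and 5.52% lower. Line label 86 had ZEB1 higher and DSP lower, where 1.59% were called higher and 2.01% lower. Line label 87 had DSP lower, where 2.08% were called higher and 3.05% lower. These contrasts share their 2 control libraries.

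Among the 3 line labels 5 of the 8 genes differed (DSP, SNAI1, ZEB1, JUP and SNAI2), where 14.6% of all genes did. With adjusted P there were 4 (DSP, SNAI1, ZEB1 and JUP), against 10.8% of all genes. Each line label had its own pattern: SNAI1 and SNAI2 were highest and JUP lowest in line label 79, and ZEB1, JUP and the remaining DSP were highest in line label 86. Line label 87 shared the low DSP of line label 79 without its SNAI1.

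The change under the knockout label was then set against the mean change of the 3 line labels in 1 fit of all 12 libraries. The difference was called for 3 of the 8 genes, all as higher under the knockout label, where 9.90% of 16404 genes were called in this direction and 3.63% in the other. It was 2.41 ± 0.16 for DSP (limma, adjusted P = 5.97e-05), 1.46 ± 0.20 for ZEB2 (adjusted P = 0.00225) and 0.61 ± 0.14 for VIM (adjusted P = 0.0251). DSP was called in both comparisons, in opposite directions, whereas ZEB2 and VIM were called under the knockout label alone, so that for these the difference need not rest on a change in the overexpression lines. The call for VIM was lost with median ratio scaling and when any 1 of 5 libraries was left out, with 2 members called instead of 3. The comparison and the library type cannot be told apart in this test.

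**Figure D4:**
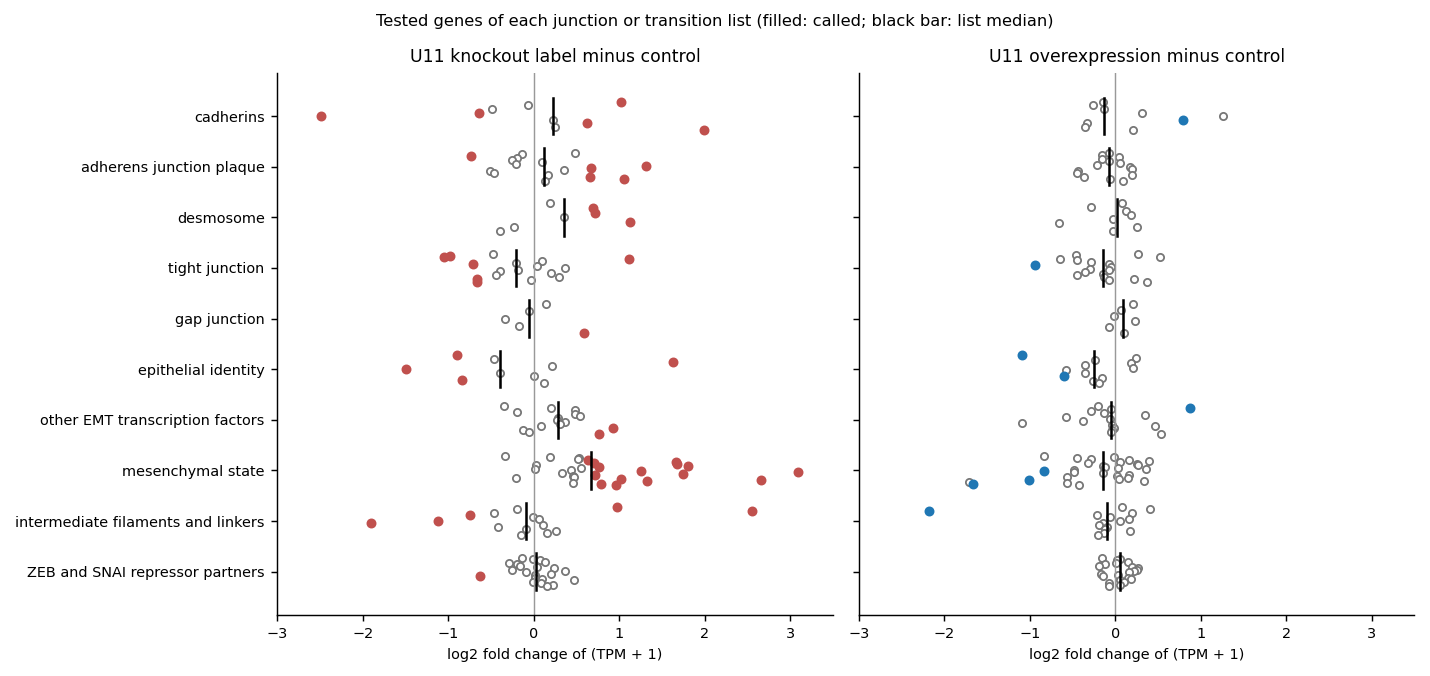
Log2 fold change of (TPM + 1) for each tested gene of 10 lists of junction and EMT genes, in the knockout comparison (left) and the overexpression comparison (right), with called genes filled and a black bar at the median of each list. The list of mesenchymal genes lies to the right of 0 under the knockout label, with 15 of 28 genes called, and other lists spread to both sides.

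The other genes of these structures were followed in lists named for their role, which do not contain the 10 genes. The lists were chosen with earlier results of these data known, so they are described and not tested as sets. Their counts under the knockout label stand against 8.61% of all genes called higher and 3.15% called lower, and those over the overexpression libraries against 0.767% and 1.16%. Of 13 desmosome genes, 7 were tested in the knockout comparison and 3 rose with DSP. PERP, which encodes a desmosomal membrane protein, went from 24.2 and 24.5 TPM to 55.8 and 52.9 TPM, a change of 1.13 ± 0.09 (limma, adjusted P = 0.0113). DSG2 and DSC3, which encode desmosomal cadherins, rose by 0.72 and 0.69 (limma, adjusted P = 0.0445 and 0.0448). At an unadjusted limma P under 0.05, 4 of the 7 were higher and 1 was lower. The list median was 0.35, where that of all genes was 0.11. In the overexpression comparison none of the 8 tested desmosome genes was called in limma, none had an unadjusted P under 0.05, and the list median was 0.03. PERP ranged there from 60.8 to 65.8 TPM over all 8 libraries, in lines with low DSP as in controls. The plakophilin PKP2 fell in line label 79 by 1.39 (limma, adjusted P = 0.00478), from 21.8 and 15.9 TPM to 5.91 and 7.15 TPM. This and the other genes named below for single line labels were chosen after their values were seen.

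Among the 21 other cadherins 9 were tested. Under the knockout label 3 rose and 2 fell. PCDH7, a protocadherin gene, went from 1.73 and 1.74 TPM to 10.2 and 9.49 TPM, and CDH10 and CDH8 rose by 1.02 and 0.62. CDH10 held 0.872 and 0.805 TPM in the controls and 2.77 and 2.67 TPM under the knockout label. It was thus tested only through the libraries where it was higher. The falls were in CDH4 (-0.64) and CDH5 (-2.49). CDH5, which encodes the cadherin of endothelial junctions, dropped from 4.85 and 4.75 TPM to 0.0316 and 0.0293 TPM. It went the other way in line label 79, to 34.1 and 32.2 TPM from 3.43 and 3.08 TPM in its controls, a change of 3.01 ± 0.13 (limma, adjusted P = 1.38e-04), while line labels 86 and 87 stayed between 4.17 and 5.28 TPM. CDH6 was called higher over the 6 overexpression libraries at 0.79 (limma, adjusted P = 0.761). Its controls held 0.524 and 0.424 TPM, so it too was tested only through the group where it was higher. The 3 rises under the knockout label became 1 without either knockout library, the 2 falls became 1 without either control, and the CDH6 call was lost without either control or either library of line label 79. With 1 TPM required in every library the rises were 2, the falls 1, and CDH6 was not called.

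In the plaque of adherens junctions 16 of 19 genes were tested under the knockout label, where 4 rose and 1 fell. The actin binder LIMA1 rose by 1.31, afadin (MLLT4) by 0.67, nectin-3 (PVRL3) by 0.66 and nectin-4 (PVRL4) by 1.06, and the catenin ARVCF fell by 0.73. The adjusted P-value in limma was under 0.05 for PVRL4 (0.0203) and ARVCF (0.0371). PVRL4 held 0.00546 and 0.0554 TPM in the controls and 1.18 and 1.11 TPM under the knockout label. It was thus tested only through the libraries where it was higher. With 1 TPM required in every library 3 genes of the list were called higher. The genes of beta-catenin, alpha-catenin and p120-catenin (CTNNB1, CTNNA1 and CTNND1) were called in neither comparison. The 4 rises became 2 with median ratio scaling or quantile normalization and 1 with FPKM or without knockout replicate 1, and the 1 fall became 3 with quantile normalization, with a pseudocount of 0.1 or without knockout replicate 1. None of the 15 genes tested in the overexpression comparison was called in limma, and 2 had an unadjusted P under 0.05.

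Tight junction genes moved down more often than up under the knockout label. Of 17 tested, 5 fell and 1 rose, with a list median of -0.21. CLDN1, a claudin of barrier epithelia, fell from 54.5 and 55.9 TPM to 28.1 and 26.7 TPM, or by 0.98 (limma, adjusted P = 0.0151), and CLDN11 fell by 1.05 (limma, adjusted P = 0.0324). F11R, the gene of junctional adhesion molecule A, fell by 0.71 under the knockout label (limma, adjusted P = 0.154) and by 0.94 over the overexpression libraries (limma, adjusted P = 0.464). The 1 gene that rose was CLDN12, by 1.12 (limma, adjusted P = 0.102), with control values of 17.3 and 8.62 TPM, and no gene of the list was called higher without either knockout library (2 were without control replicate 2). Line label 79 had 4 of 18 tested tight junction genes lower (CLDN1, CLDN12, OCLN and CLDN15), where 5.52% of all genes were called lower. CLDN1 was there at 53.4 and 54.9 TPM against 130.1 and 126.6 TPM in the controls.

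Gap junction genes gave 1 call under the knockout label, PANX2 at 0.59 (limma, adjusted P = 0.0658). The call was lost with FPKM, median ratio scaling or quantile normalization, and without knockout replicate 1 or control replicate 2, and without control replicate 1 another gene was called lower. In the overexpression comparison none of 6 was called in limma and 1 had an unadjusted P under 0.05.

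Of 26 genes of epithelial identity 9 were tested in the knockout comparison, where 3 fell and 1 rose, with a median of -0.40. LSR, the gene of a receptor at tricellular junctions, fell from 6.12 and 4.91 TPM to 0.975 and 1.65 TPM, a change of -1.50 (limma, adjusted P = 0.0252). AP1M2, an epithelial sorting adaptor, fell by 0.90 (limma, adjusted P = 0.0275) and SPINT2 by 0.84 (adjusted P = 0.114). The Krueppel-like factor KLF4 rose by 1.63 (limma, adjusted P = 0.0141). Over the overexpression libraries AP1M2 fell by 1.09 and MUC1 by 0.60, neither after adjustment (limma, adjusted P = 0.654 and 0.831). AP1M2 was lowest in line labels 79 and 87, at 0.456 to 0.627 TPM, with 2.54 and 2.07 TPM in line label 86 and 3.25 and 3.21 TPM in the controls. The 2 falls became 0 when either control was left out, and the 3 falls under the knockout label became 1 when 1 TPM was required in every library.

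The list of mesenchymal genes, made of matrix, cytoskeleton and integrin genes, gave the most calls. Under the knockout label 15 of 28 tested genes rose with VIM and none fell, 12 of them also at the adjusted threshold, with a list median of 0.67 where that of all genes was 0.11. NT5E, which encodes the ectonucleotidase CD73, went from 14.6 and 16.6 TPM to 144.9 and 135.0 TPM, a change of 3.09 ± 0.11 (limma, adjusted P = 0.00276). TGFBI, a matrix protein gene induced by TGF-beta, rose by 2.66 and the fibronectin receptor gene ITGA5 by 1.81. With median ratio scaling 12 of the genes were called higher and none lower. The tested genes COL1A1 and TNC met the 1 TPM filter only through the knockout libraries, so they could be called only as higher. COL1A1 went from 0.755 and 0.823 TPM to 1.95 and 1.64 TPM, and TNC from 0.638 and 0.808 TPM to 4.21 and 2.58 TPM. As this list too was chosen with earlier results of these data known, its counts and median are descriptions. The fibroblast markers summed to at most 3.86 TPM in these libraries.

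Over the overexpression libraries 3 of 29 mesenchymal genes fell and none rose (limma, with 1 higher at an unadjusted P under 0.05), with a median of -0.14 where that of all genes was -0.02. TGFB2, which encodes a TGF-beta ligand, fell by 1.01 ± 0.13 and passed the adjusted threshold (limma, adjusted P = 0.0202), from 27.2 and 26.9 TPM in the controls to between 11.2 and 15.2 TPM in all 6 libraries. The proteoglycan gene VCAN fell by 1.67 and NT5E by 0.83 (limma, adjusted P = 0.383 and 0.716). All 3 were among the genes that rose under the knockout label, and 5 genes of the list fell when either library of line label 86 was left out. The line labels did not move as 1 group: of the 29 genes, line label 79 had 3 higher and 8 lower, line label 86 had 3 lower, and line label 87 had 10 lower. Of all genes 2.43% were called higher and 5.52% lower in line label 79. In line labels 86 and 87, 2.01% and 3.05% of all genes were called lower. TGFBI was higher in line label 79 (235.2 and 237.7 TPM) and lower in line label 87 (18.1 and 19.4 TPM) than in the controls (52.1 and 49.0 TPM).

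Among 26 keratins, other intermediate filaments and linkers, 15 were tested. Under the knockout label KRT17 rose by 2.55 and DST by 0.98, while KRT81, KRT80 and KRT19 fell by 1.90, 1.12 and 0.74. Keratin genes have near-identical relatives and pseudogenes, so reads of KRT17 and KRT81 could have been split between copies. Over the overexpression libraries KRT17 fell by 2.18 (limma, adjusted P = 0.70), from 49.2 and 40.0 TPM in the controls to between 2.02 and 22.7 TPM, lowest in line label 87. That call was lost without either control, and the 2 rises under the knockout label became 1 with FPKM or quantile normalization and without control replicate 1 or either knockout library. KRT81 was higher in line labels 79 and 86 and lower in line label 87.

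Of 23 other EMT transcription factor genes, 2 of 15 tested rose under the knockout label, SOX9 by 0.93 (limma, adjusted P = 0.02) and TCF4 by 0.77 (adjusted P = 0.0645). Over the overexpression libraries ETS2 was called higher at 0.87 (limma, adjusted P = 0.824), with 115.3 and 129.0 TPM in line label 79, 83.8 and 81.7 TPM in line label 86, 48.7 and 49.8 TPM in line label 87 and 41.4 and 44.6 TPM in the controls. The ETS2 call was lost without either control or either library of line label 79, with the batch block and with the mean of each line label, and 1 gene of the list was called lower without either library of line label 86 or without replicate 3 of line label 79. Line label 79, the one with high SNAI1, had 4 of 16 tested genes of the list higher (ETS2, ID1, SOX4 and TCF4) and 2 lower (RUNX2 and HMGA2). Of all genes 2.43% were called higher in that line label and 5.52% lower.

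The 22 repressor partners of ZEB and SNAI proteins, such as the CtBP and histone deacetylase genes, were nearly flat. All 22 were tested, and 1 was called under the knockout label, PDLIM1, lower by 0.63 (limma, adjusted P = 0.0415), a call lost without knockout replicate 2. Up to 2 of the genes were called higher when knockout replicate 2 or control replicate 2 was left out. None was called over the overexpression libraries in limma, and 3 had an unadjusted P under 0.05.

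Across the 10 lists 6 genes were called in both comparisons. The share of all genes called in both was not worked out, so this count is a description without a test. NT5E, TGFB2, VCAN and KRT17 rose under the knockout label and fell over the overexpression libraries, the directions of DSP. F11R and AP1M2 were lower in both.

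Over the 12 libraries, each taken as the log2 difference from its own controls, the 8 tested genes did not vary as 1 block. The highest Pearson correlations among them were 0.84 for CDH2 and SNAI1, 0.76 for DSP and ZEB2, 0.74 for VIM and ZEB2 and 0.66 for SNAI1 and SNAI2. DSP and JUP had 0.04. The points share clones and controls, so these are descriptions without a test.

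The genes most like each member were sought in the same way among the 9632 genes whose mean reached 5 TPM in both comparisons. DSP was followed most closely by IGFBP5 (0.982), KNSTRN (0.974) and TPM1 (0.972), the last an actin filament gene of the mesenchymal list. SNAI1 was followed by COL4A6 (0.959), TGM2 (0.948) and the non-coding RNA gene UCA1 (0.942). ZEB2 was followed by ALAD (0.976), RP11-686D22.7 (0.974) and RAP2C (0.973), and VIM by SERINC3 (0.961), MOXD1 (0.957) and WSB2 (0.954). The closest gene was KLF5 for ZEB1 (0.931), C11orf80 for JUP (0.940), GLG1 for CDH2 (0.943) and PHLDB3 for SNAI2 (0.940).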

How the data were processed

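RNA from 12 T24 libraries was sequenced. Sample titles and labels gave the conditions and line labels, and library batches were read from the codes in the titles. Per the methods, the authors depleted ribosomal RNA (the labels say polyA RNA), aligned reads to hg38 with Hisat2 and ran Stringtie on each library. For each gene the authors deposited coverage (mean aligned bases per position), FPKM and TPM. No read counts were used, so no count test was run, and TPM does not record the size of its counting error.

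Tests used limma 3.58.1 in R 4.3.3 (lmFit, eBayes with trend) on log2(TPM + 1), for genes with at least 1 TPM in at least 2 of the libraries compared. The study's thresholds were used for calls (unadjusted P below 0.05, fold change 1.5 or more). Adjusted P is Benjamini-Hochberg over all genes tested. The knockout fit held 4 libraries, the overexpression fit 8, and the difference of the 2 changes used all 12. In simulated knockout data with 14356 genes the procedure was checked before use. Aligned bases were derived from the ratio of coverage to FPKM. Promoters came from RefSeq. Python 3.11.15 with scipy 1.17.1 was used.

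The 10 genes and all lists were chosen with earlier results of these data known. Named list genes were the up to 3 largest rises and falls among the called genes of each list whose mean reached 2 TPM in 1 group, and those called in both comparisons. Other named genes were singled out after their values were seen. The 3 genes most like each member were taken among those with at least 5 TPM in each comparison. Alternatives were a pseudocount of 0.1, FPKM, median ratio scaling, quantile normalization, other filters, no trend, 1 fit of all libraries, replicate and batch blocks, line means, adjusted P and leaving out each library. Replicate numbers did not pair the knockout libraries (correlation of deviations 0.02).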

Additional observations from a re-analysis of the deposited data

Results flagged for a closer look

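The difference between the change under the knockout label and the mean change of the overexpression line labels was called in limma for DSP (2.41 on the log2 scale), ZEB2 (1.46) and VIM (0.61). DSP was higher in 2 of 2 libraries under the knockout label and lower in 6 of 6 overexpression libraries than in either control, and ZEB2 likewise. VIM was higher in 2 of 2 libraries under the knockout label and mixed in the other comparison. Whether the difference in library type has a part in these values was not tested.

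The 3 line labels, all labelled U11 overexpression, differed from each other in 4 of the genes after adjustment. The range of the 3 line means was 1.51 for SNAI1, 1.33 for DSP, 0.99 for ZEB1 and 0.71 for JUP on the log2 scale. RNU11 also differed between the line labels, and its part in these differences was not tested.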

How the results depend on the processing

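The count of genes called under the knockout label was 4 and fell to 2 (VIM and ZEB2) with FPKM, with median ratio scaling and with quantile normalization, where DSP and ZEB1 came under the fold change required. The count over the overexpression libraries fell from 1 to 0 with adjusted P in limma, with 2 genes at an unadjusted P under 0.05. Leaving out 1 library at a time gave 3 to 4 genes called under the knockout label, 1 over the overexpression libraries, 2 to 3 in line labels 79 and 86, 1 in line label 87, 4 to 5 between line labels and 2 to 4 for the difference of the changes. In line label 79 ZEB2 was added without its replicate 1 or without control replicate 4, and SNAI2 was added without either library of line label 86. SNAI2 was also added in line label 86 without its replicate 1, and JUP was dropped between line labels without that library. The sign of 3 small values turned when a library was left out: CDH2 under the knockout label ranged from -0.08 to 0.06, JUP over the overexpression libraries from -0.18 to 0.00, and SNAI2 there from -0.20 to 0.12 (0.00 without control replicate 4, 0.04 without either library of line label 87). The other settings, adjusted P among them, were counted for the members' fold changes in the knockout comparison and the overexpression comparison. Of these values 159 kept their direction and stayed called or not called. Another 8 were no longer called, and none reversed. In line label 79 median ratio scaling gave 3 members called, with SNAI2 added to DSP and SNAI1. With the replicate block 4 members were called under the knockout label, the same 4 as without it, and the library batch block changed no call of a member in the overexpression comparison. The cause of these shifts was not tested. TPM keeps no read counts, so the precision of genes near 0, CDH1 and TWIST1 above all, is unknown. Each group of the knockout comparison holds 2 libraries, and the knockout line is, per the methods, a monoclonal line.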
